A study of Nasonia vitripennis x Nasonia giraulti with 2 samples.

Results

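The V allele, the copy of the genome that came from Nasonia vitripennis (Nv), was compared between daughters that inherited it from their mother and daughters that inherited it from their father. Whole-genome bisulfite sequencing (WGBS-seq) was performed on whole adult females collected 24 h after eclosion, from Nv strain AsymCX and N. giraulti (Ng) strain R16A crossed in both directions. In F1VG the mother was Nv and the father Ng, so V was maternal. In F1GV the mother was Ng and the father Nv, so V was paternal. Each library was made from a pool of 50 adults, and there was 1 library per cross. Every F1VG to F1GV comparison therefore set the reads of 2 libraries against each other, had no replicate error, and could not separate the parent that transmitted V from other differences between the libraries. Nuclear CpG counts gave no check on which species was the mother. Whole bodies hold many tissues, and a change in the share of cells that carry a methylated CpG cannot be told apart from a change of tissue composition.

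Members were CpGs listed for both libraries at the same scaffold and position whose V methylation level, the methylated V reads as a percentage of all V reads with both libraries summed, was at least 10%. There were 128875 such CpGs among the 5531492 CpGs listed in both. Neighbouring members no more than 1000 bp apart were joined, and runs of 4 or more made 7075 V stretches that held 74208 members. The other 54667 members lay in shorter runs or alone. A stretch had a median of 8 members and 1487 bp, and the longest held 125 members. Positions refer to scaffolds of the Nv v1.0 assembly. No genome or gene annotation of that build was used here, so stretches carry no gene names and no sequence is shown.

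In bisulfite sequencing an unmethylated cytosine is read as T and a methylated one as C, so each read at a CpG records the state of a single DNA molecule. In Nasonia, as in many other insects, methylated CpGs are rare and sit in clusters, mostly within the exons of genes. Mammals have imprinted loci at which the maternal and the paternal copy carry different methylation. Comparing the same allele after maternal and after paternal transmission asks whether its methylation depends on the parent it came from. The wasps are haplodiploid: males develop from unfertilised eggs and are haploid, and F1 females carry a single V and a single G chromosome set.

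Total counts over the listed CpGs were 286833473 for F1VG and 371795018 for F1GV. At the members the median was 17 V reads in F1VG and 21 V reads in F1GV. At CpGs that were not members, 1.49% of V reads were methylated in F1VG and 1.57% in F1GV. CpGs just inside the 10% limit, by less than 0.5 points, numbered 14671 and averaged 11.6% in F1VG and 8.71% in F1GV. The 12392 CpGs just outside it, by no more than 0.5 points, averaged 10.9% in F1VG and 8.36% in F1GV.

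Across the members, the mean V levels of the 2 libraries lay close together, while single CpGs differed more. F1VG had a mean V level of 38.0% ± 33.5 and F1GV one of 35.9% ± 34.5 (SD over members). The median difference, F1VG minus F1GV, was 2.88 percentage points, with quartiles of -12.0 and 17.3, and the median absolute difference was 15.1 points. The positive median came from the weakly methylated members. At the 72218 members with a pooled V level of 10% to 20%, the mean was 14.5% in F1VG and 10.2% in F1GV, the median difference was 6.25 points and the median absolute difference 17.3 points. Among all other members, those at 20% or more, the median difference was 0.0. The G allele, at the CpGs with a pooled G level of at least 10%, had a median difference of 4.0 points in the same direction. Across the members, Pearson's r of the V level between F1VG and F1GV was 0.806 and Spearman's rho 0.504, values that describe CpGs, many of which share reads.

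**Figure D1:**
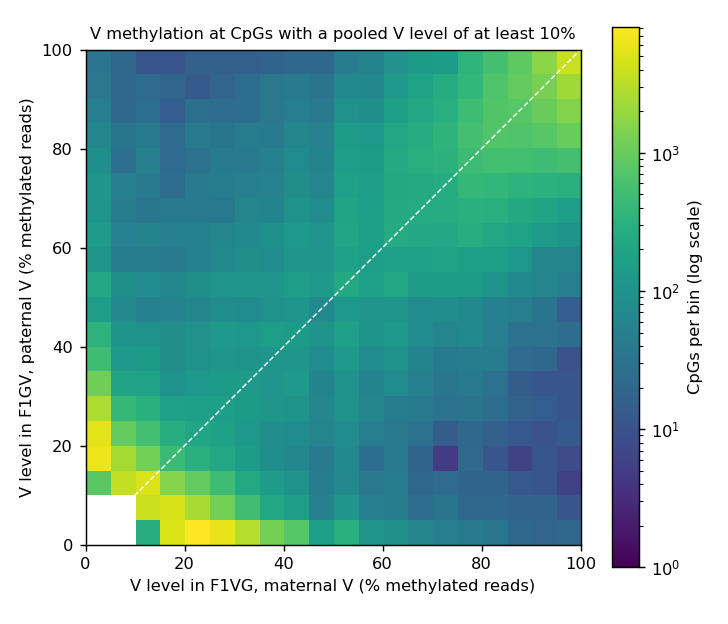
V methylation level of the 128875 members in F1VG (x axis, maternal V, percent of V reads) against F1GV (y axis, paternal V, percent of V reads), as the number of CpGs in bins of 5 points by 5 points on a log colour scale, with the line of equal levels dashed and bins with no CpG left white. Most highly methylated CpGs lie near the line, and the dense lower left corner holds the members with a pooled level of 10% to 20%.

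The absolute difference was smallest at the most strongly methylated CpGs, with a median of 5.0 points at a pooled V level of 90% or more. Of the 13505 members with a pooled V level of 90% or more, the mean was 95.5% in F1VG and 94.6% in F1GV, and 0 of them were called as different between the libraries. The test behind these calls was a two-sided Fisher's exact test of methylated and unmethylated V reads at each CpG, with Benjamini-Hochberg adjustment over all 5531492 shared CpGs and an adjusted p under 0.05. A CpG that is nearly fully methylated in both libraries together cannot differ much between them, so this class could hold few calls by construction. At 80% to 90% there were 2 calls among 11184 members.

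At 1502 members the V allele differed between the libraries, 1.17% of the members, against 0.0272% of all shared CpGs. None of the calls fell outside the members. A CpG with a pooled V level under 10% has few methylated V reads at usual depth and could hardly be called. The lack of calls outside the members and their higher share of calls are thus largely set by the 10% limit. V was higher in F1VG, where it was maternal, at 554 CpGs (0.43% of the members, 0.01% of all shared CpGs) and higher in F1GV, where it was paternal, at 948 (0.736% of the members, 0.0171% of all shared CpGs). An unadjusted p under 0.05 was reached at 21619 members (16.8%). With the adjustment restricted to CpGs at a pooled V level of at least 10%, 4755 CpGs were called, 2072 higher in F1VG and 2683 higher in F1GV, and all 1502 CpGs were among them.

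At most called CpGs V was nearly bare in one library, while its level in the other varied. The absolute V difference had a median of 68.6 points (quartiles 58.9 and 78.6) and was never below 30.6 points. The library with the higher V level had a median of 78.4% methylated V reads, and the other library 4.0%. The higher level reached 80% at 709 of the 1502. At 1063 of the 1502 CpGs (70.8%) the lower V level was under 10%, and at 564 there was no methylated V read at all in the lower library. V was at least 80% in one library and under 10% in the other at 366 CpGs, with F1VG the higher at 136 and F1GV the higher at 230.

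Calls were concentrated at intermediate pooled levels, where a switch between the libraries has to fall. From 20% to 40%, 613 of 10359 members were called (5.92%), 290 with V higher in F1VG and 323 with V higher in F1GV. From 40% to 60%, 652 of 8470 were called (7.70%), 198 higher in F1VG and 454 higher in F1GV. From 60% to 80%, 188 of 13139 were called (1.43%), 34 higher in F1VG and 154 higher in F1GV. At 10% to 20%, 47 of 72218 were called (0.0651%), 32 higher in F1VG and 15 higher in F1GV. The share of called CpGs was higher at greater depth. Among the 31968 members from 20% to 80%, 1.66% were called where the shallower library had 8 to 15 V reads, 4.56% at 16 to 23 reads, 7.63% at 24 to 31 reads and 10.2% at 32 reads or more. A member with few reads that was not called may therefore still differ.

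Members were also grouped by their pooled G level, which had no part in choosing them. This was done for the members with a pooled V level of 20% to 80%. Where the G allele was under 10%, 865 of 9068 were called on V (9.54%), 256 with V higher in F1VG and 609 with V higher in F1GV. Where G was at 10% to 50%, 304 of 8641 were called (3.52%), 119 with V higher in F1VG and 185 with V higher in F1GV. Where G was at 50% or more, 284 of 14259 were called (1.99%), and the directions were nearly even, with 147 higher in F1VG and 137 higher in F1GV. The mean V level in these 3 classes was 34.3% in F1VG and 41.4% in F1GV, then 44.6% in F1VG and 46.7% in F1GV, then 63.8% in F1VG and 62.6% in F1GV. The share of called CpGs was thus higher where G was bare, but these classes also differed in V level, and the part of that was not tested.

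The 5 CpGs of smallest p with V higher in F1VG were nearly complete switches. SCAFFOLD4 position 5225623 had 34 of 36 V reads methylated in F1VG (94.4%, 95% Wilson interval 81.9% to 98.5%) and 1 of 59 in F1GV (1.69%, 0.30% to 9.0%). Its adjusted p was 8.6e-16 by Fisher's exact test. The G allele of this CpG was methylated in both libraries (29 of 33 reads for F1VG, 33 of 40 for F1GV). At SCAFFOLD14 position 2508216, F1VG had 34 of 35 V reads methylated (97.1%, 85.5% to 99.5%) and F1GV had 2 of 58 (3.45%, 0.95% to 11.7%), while G was nearly bare, with 0 of 28 for F1VG and 2 of 42 for F1GV.

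At SCAFFOLD14 position 209834, 28 of 29 V reads were methylated in F1VG (96.6%, 82.8% to 99.4%) and 0 of 38 in F1GV, which allows a level of up to 7.89%. For a count of 0, the limit given here and below is 3 divided by the reads, not a Wilson limit. The upper Wilson limit at this CpG was 9.18%. At SCAFFOLD40 position 584009 the counts were 33 of 34 V reads in F1VG (97.1%, 85.1% to 99.5%) and 0 of 32 in F1GV, which allows up to 9.38%. The V reads of SCAFFOLD40 position 607729 were methylated in 25 of 26 in F1VG (96.2%, 81.1% to 99.3%) and 0 of 38 in F1GV. This last CpG stood alone, with no other member within 1000 bp. The G allele was close to unmethylated at all 3 in both libraries, from 0.0% to 3.45% in F1VG and from 0.0% to 9.09% in F1GV.

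The 5 CpGs of smallest p with V higher in F1GV mirrored these. SCAFFOLD25 position 1094259 had 1 of 45 V reads methylated in F1VG (2.22%, 0.39% to 11.6%) and 40 of 40 in F1GV (100%, 91.2% to 100%), the smallest p of all members (adjusted p = 7.9e-17, Fisher's exact test). SCAFFOLD2 position 4759351 had 4 of 51 in F1VG (7.84%, 3.09% to 18.5%) and 43 of 44 in F1GV (97.7%, 88.2% to 99.6%). At that CpG the G allele was highly methylated in both libraries, with 26 of 26 for F1VG and 32 of 36 for F1GV. It is with SCAFFOLD4 position 5225623 one of the 2 CpGs named here whose G allele was methylated.

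At SCAFFOLD136 position 132300, F1VG had 0 of 46 V reads methylated, which allows up to 6.52%, and F1GV had 36 of 39 (92.3%, 79.7% to 97.4%). At SCAFFOLD24 position 1780313 the counts were 0 of 30 in F1VG and 41 of 41 in F1GV (100%, 91.4% to 100%), and at SCAFFOLD7 position 2633045 they were 1 of 28 in F1VG (3.57%, 0.63% to 17.7%) and 46 of 46 in F1GV (100%, 92.3% to 100%). The G allele at these 3 CpGs was between 0.0% and 7.69% in F1VG and between 0.0% and 7.14% in F1GV.

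How far a switch extended to the neighbouring CpGs differed from site to site. Around SCAFFOLD25 position 1094259, the 4 other members within 1000 bp had a median V difference of -78.7 points, and 3 of them were called with V higher in F1GV. Around SCAFFOLD7 position 2633045, 15 neighbours had a median of -44.4 points, and 5 were called in the same direction. Around SCAFFOLD4 position 5225623, in contrast, the 18 neighbours had a median of 6.13 points and 2 were called, and around SCAFFOLD40 position 584009 the 15 neighbours had a median of 1.86 points and 3 were called. A switch at these positions thus took in only part of the methylated CpGs nearby.

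Calls close to each other nearly always pointed the same way. Of 384 pairs of successive called CpGs up to 100 bp apart, 374 (97.4%) had V higher in the same library. At such a distance a single read can cover both CpGs, so the pairs are not separate observations. Beyond the reach of a single read and up to 1000 bp apart, 86 of 117 pairs (73.5%) had the same direction. The share was 55.1% of 187 pairs beyond that up to 10000 bp and 49.8% of 400 pairs from there up to 100000 bp. The called CpGs lay on 134 of the 1294 scaffolds with members, and 1386 of the 1502 were in stretches.

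Most stretches had a similar V level in both libraries. The mean V level of a stretch differed by less than 10 points between F1VG and F1GV in 5020 of the 7075 stretches (71.0%), and the median absolute difference was 5.97 points. Of the 3299 stretches with a mean V level of at least 50% in both libraries, 24 differed by 20 points or more. No called CpG was found in 6230 stretches, 1 in 542, 2 or 3 in 250 and 4 or more in 53, with at most 11 in a stretch.

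A difference of at least 20 points in the mean V level, a limit of size and not a test, was found in 396 stretches (5.6%), with V higher in F1VG in 216 (3.05%) and higher in F1GV in 180 (2.54%). Which direction prevailed changed with the methylation level, the size of the stretches and the settings. With the level taken as the mean of the 2 libraries, 433 stretches passed with V higher in F1VG and 179 with V higher in F1GV. With reads thinned to equal depth these numbers were 413 and 199. Of the stretches with 4 to 7 members, 180 passed the limit with V higher in F1VG and 88 with V higher in F1GV, against 36 and 92 of those with at least 8 members. V was higher in F1GV in most stretches past the limit also with at least 16 V reads per CpG (172 of 273), with gaps of at most 200 bp (455 of 700) and at a limit of 30 points (57 of 86). With members at a pooled V level of at least 20%, 268 stretches passed the limit, 79 with V higher in F1VG and 189 with V higher in F1GV. Among the 2435 stretches with a mean V level of 10% to 20%, 131 passed it with F1VG higher and 21 with F1GV higher. At single members of that level V had a median difference of 6.25 points. Over all CpGs with a pooled level of at least 10% on the allele in question, the median difference was 2.88 points for V and 4.0 points for G. The part of these offsets in the 131 stretches was not tested.

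The reads of each stretch were also compared by a Cochran-Mantel-Haenszel test stratified by CpG. It is a chi-square test, and it used only members more than 100 bp apart, the spaced CpGs, so that no read counted at more than 1 CpG, with Benjamini-Hochberg adjustment over all stretches. The V allele differed in 896 stretches (12.7%), with V higher in F1VG in 504 (7.12%) and higher in F1GV in 392 (5.54%). Here and in the alternatives, the direction is that of the mean V difference over all members. It can differ from the direction over the spaced CpGs that the test used. Using members at a pooled V level of at least 20%, V was higher in F1VG in 264 of 659 and higher in F1GV in 395. Stretches called by this test that also differed by at least 20 points numbered 243, and 154 of these had a mean V level of at least 20%.

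Those 154 strongly differing stretches lay on 68 scaffolds. V was higher in F1VG in 53, where its median level was 60.6% in F1VG and 33.3% in F1GV. V was higher in F1GV in the rest of the 154, where its median level was 24.0% in F1VG and 57.8% in F1GV. The median number of members was 9 in the first set and 8 in the second. V was nearly bare in one library, under 10%, in 22 stretches, 20 of them bare in F1VG and 2 bare in F1GV. This split holds only with the limit of 20% on the mean level. Over all 243, V was higher in F1VG in 129, with median levels of 28.3% in F1VG and 4.25% in F1GV. It was higher in F1GV in 114, with median levels of 20.0% in F1VG and 55.1% in F1GV. Every member differed in the same direction in 47 of the 154, and in the others at least 1 CpG had equal levels or pointed the other way. The share over all stretches is not given here, and the 154 were chosen by a large mean difference, which favours a single direction. Their V depth, with medians of 19.9 reads per CpG in F1VG and 25.5 in F1GV, was close to that of all stretches, 18.9 in F1VG and 23.1 in F1GV. Such stretches were spread over the genome. Among the scaffolds with at least 100 stretches, the share called and past 20 points ran from 0.671% of the 149 on SCAFFOLD8 to 5.49% of the 455 on SCAFFOLD1, counting all levels.

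**Figure D2:**
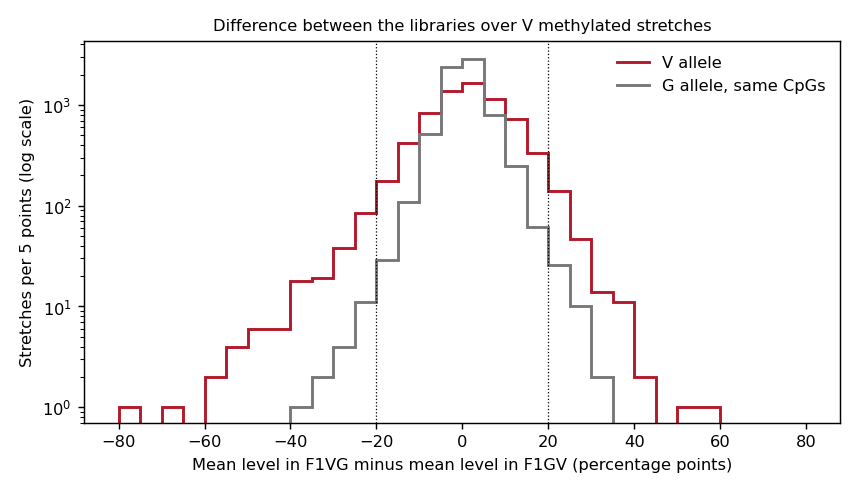
Number of stretches (y axis, log scale) by the mean methylation level in F1VG minus that in F1GV (x axis, percentage points, bins of 5 points), for the V allele in red and for the G allele at the same CpGs in grey, with dotted lines at 20 points either way. The V allele passed 20 points in 396 of 7075 stretches and the G allele in 56.

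The G allele at the same CpGs served as a second readout of the same 2 libraries that the choice of members did not use. At the 1502 called CpGs the median absolute G difference was 5.87 points, and it was under 10 points at 1002 of them. The G difference had the same sign as the V difference at 675 CpGs and the opposite sign at 572, with equal levels at 255. Of the CpGs where it was not 0, 54.1% thus had the same sign (95% Wilson interval 51.4% to 56.9%, which treats CpGs as independent). The G allele was itself called at 11 of the 1502, in the same direction as V at 6. Over all CpGs with a pooled G level of at least 10%, the same test called G at 235 of 136043 (0.173%, or 0.00425% of all shared CpGs), with an unadjusted p under 0.05 at 13.9% of them.

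Because V members can be bare on G, which leaves G no room to differ, V and G were also set side by side at the 16103 CpGs where both alleles had a pooled level of 20% to 80%. There, V was called at 341 CpGs and G at 106, with a median of 46 reads for each allele over the 2 libraries. Over the 3750 stretches in which both alleles had a mean of 20% to 80%, the V difference was at least 20 points in 141 and the G difference in 44, and the stratified test called V in 512 and G in 125. For CpGs and for stretches, the p-values of V and of G were adjusted separately. G had fewer calls in all, so a call on G needed a smaller unadjusted p, and the numbers called are not at a matched threshold. Over all 7075 stretches the G allele was called in 143 (2.02%) and past 20 points in 56 (0.792%). In the 3750 the median absolute difference was 5.17 points for V and 3.63 points for G. These stretches were drawn around V members, and whether V varied more than G between the libraries was not tested over the set as a whole.

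Within single stretches the difference between V and G could be tested. Mantel-Haenszel differences between the libraries were estimated for V and for G over the same members more than 100 bp apart, and V minus G was compared with its standard error, a test added after the other values had been seen. It passed in 952 of the 7075 stretches (13.5%, adjusted p under 0.05) and in 125 of the 154 strongly differing ones. The 154 were chosen by their V difference on the same reads, and G had no part in that choice. The share that passed among them, and the V and G sizes that follow, are therefore largely set by how they were chosen. In those 154, the median absolute difference was 27.6 points for V and 3.05 points for G, G reached 20 points in 4, and the stratified test called G in 2.

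In the strongly differing stretches where V was higher in F1VG, V was farther from the G level in F1VG than in F1GV in 41 of 53. Where V was higher in F1GV, it was farther from G in F1VG in 17. The stretches were chosen by their V difference and G differed little, so both counts are largely set by that choice. The G allele averaged under 10% in 6 of the 53 and in 40 of those with V higher in F1GV. It averaged at least 20% in 43 of the 53 and in 48 of those with V higher in F1GV. The same shares over all stretches are not given here, and whether these G levels were unusual was not tested.

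Of the stretches with at least 6 members, the 6 with the largest V difference in each direction are described one by one. Each level is the mean of the stretch's CpGs, ± their SD. The 6 with V higher in F1GV had differences between -65.2 and -48.9 points, and the 6 with V higher in F1VG between 35.2 and 40.7 points. Over stretches of any size the differences ran from -75.5 to 59.3 points.

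SCAFFOLD983 from 10178 to 10801 had 12 members, all with V higher in F1GV. The V level was 3.59% ± 5.37 in F1VG and 68.8% ± 23.2 in F1GV, a difference of -65.2 points (chi-square adjusted p = 1.4e-15). G was bare in both libraries, at 1.14% in F1VG and 1.99% in F1GV. CpG by CpG, V did not exceed 18.5% in F1VG and did not fall below 32.6% in F1GV, so the libraries did not overlap. At position 10465, for example, 1 of 29 V reads was methylated in F1VG and 26 of 26 in F1GV. At position 10309 these counts were 0 of 21 in F1VG and 10 of 10 in F1GV.

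SCAFFOLD1 from 5564203 to 5565496, with 22 members and 11 called CpGs, showed a switch with an edge. The V level was 19.2% ± 29.9 in F1VG and 73.5% ± 18.6 in F1GV, a difference of -54.3 points (chi-square adjusted p = 1.7e-12). At the 17 members up to position 5564991, V was between 0.0% and 18.5% in F1VG and between 35.3% and 97.2% in F1GV. Position 5564744 had 0 of 32 V reads methylated in F1VG and 41 of 43 in F1GV. At the last 4 members, from position 5565382 on, V was methylated in both libraries, at 57.1% to 100% in F1VG and 88.9% to 95.2% in F1GV, and so was G. Over the first 17 members the G level was at most 20.0% in either library. The stretch thus joined a part where V was methylated mainly in F1GV to a part methylated on both alleles in both libraries.

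SCAFFOLD1 from 7964087 to 7964527 had 7 members, of which 6 were called with V higher in F1GV. V was at 11.8% ± 21.2 in F1VG and 67.2% ± 32.4 in F1GV (difference -55.4 points, chi-square adjusted p = 0.00027). Its first CpG went the other way, with 10 of 17 V reads methylated in F1VG and 0 of 14 in F1GV. At the 6 others V was at most 12.9% in F1VG and at least 50.0% in F1GV. G was at 0.0% in F1VG and 11.2% in F1GV, lower in the same library as V. The V minus G difference, -23.3 ± 9.15 points (SE), did not pass here. It rests on 3 spaced CpGs, and the first CpG, which went the other way, is among them. Over these 3, V differed by -37.2 points and G by -13.8. Over all 7 members, V differed by -55.4 points and G by -11.2.

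The remaining 3 of this direction were nearly bare on G in both libraries. SCAFFOLD38 from 1407431 to 1407932 had 8 members, with V at 1.09% ± 3.07 in F1VG and 51.6% ± 17.6 in F1GV (chi-square adjusted p = 1.9e-12). On the same scaffold, from 1299593 to 1299750, V over 6 members was at 6.05% ± 5.42 in F1VG and 56.5% ± 19.7 in F1GV (chi-square adjusted p = 3.0e-07). SCAFFOLD5 from 331663 to 333016 had 7 members with V at 12.3% ± 14.9 in F1VG and 61.2% ± 28.0 in F1GV (chi-square adjusted p = 5.7e-15). In both stretches of SCAFFOLD38 every member had V higher in F1GV, and on SCAFFOLD5 6 of 7 did. G was between 1.01% and 3.22% in F1VG and between 1.46% and 2.87% in F1GV in these 3 stretches.

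**Figure D3:**
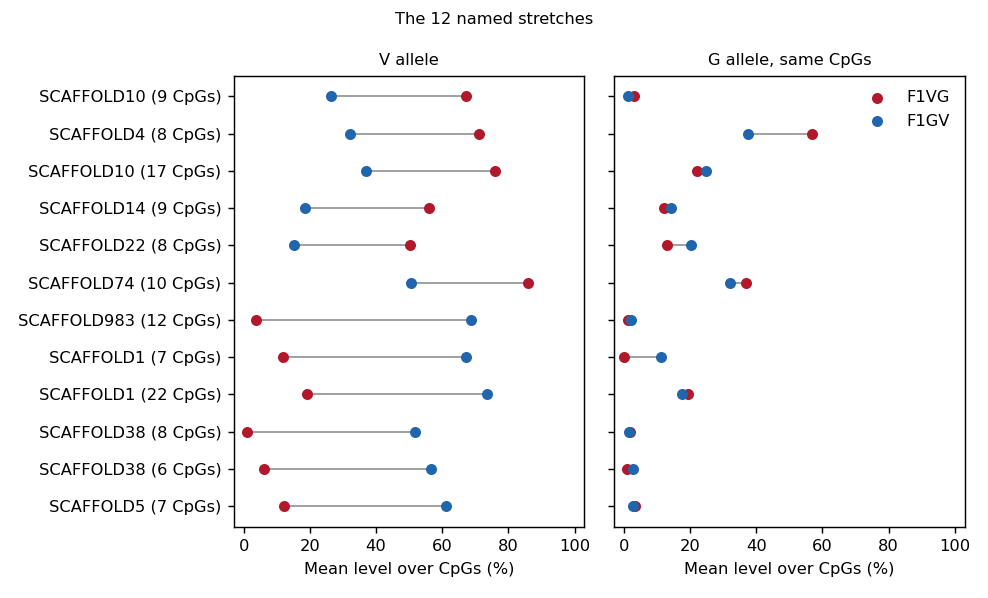
Mean methylation level over the CpGs of 12 stretches with at least 6 members, the 6 with the largest V difference in each direction (x axis, percent), for the V allele on the left and the G allele at the same CpGs on the right, with F1VG in red, F1GV in blue and a grey line joining them. V differed by 35.2 points or more in each of the 12, and G by at most 19.2 points, in the SCAFFOLD4 stretch.

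Among the stretches of at least 6 members with V higher in F1VG, SCAFFOLD10 from 1648325 to 1648745 had the largest difference. All 9 members had V higher in F1VG, with means of 67.1% ± 25.6 in F1VG and 26.4% ± 22.3 in F1GV, a difference of 40.7 points (chi-square adjusted p = 5.0e-09). G was at 3.03% in F1VG and 1.34% in F1GV. On the same scaffold, from 1867079 to 1868653, 16 of 17 members had V higher in F1VG and 1 had equal levels. V was at 75.9% ± 19.5 in F1VG and 37.0% ± 36.4 in F1GV (chi-square adjusted p = 5.2e-07).

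In that stretch the difference was largest in a patch. At the 7 members from position 1867851 to 1867942, V was between 60% and 87.9% in F1VG and between 0.0% and 23.1% in F1GV, and 6 of them were called. Position 1867866, for example, had 22 of 27 V reads methylated in F1VG and 0 of 26 in F1GV. The CpG just before the patch, 17 bp away, had 76.2% in F1VG and 68.2% in F1GV. After the patch, positions 1868039 and 1868111 differed as well without being called, at 82.6% and 82.4% in F1VG and 26.3% and 14.8% in F1GV, while position 1868118 was fully methylated in both libraries. From position 1868412 on, V was at least 88.9% in F1VG and at least 78.6% in F1GV.

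SCAFFOLD14 from 208932 to 210106 had 9 members and a patch of 3 called CpGs. Over the stretch V was at 56.1% ± 37.5 in F1VG and 18.5% ± 28.7 in F1GV (chi-square adjusted p = 2.5e-05). With the spaced CpGs taken from the right end in place of the left, its chi-square adjusted p was 0.12. Positions 209804, 209834 and 209839 had V at 85.7%, 96.6% and 86.2% in F1VG and at 0.0%, 0.0% and 2.44% in F1GV. The CpG at 209648, before them, was at 78.6% in F1VG and 71.4% in F1GV, and the CpG at 209881, after them, at 18.8% in F1VG and 7.50% in F1GV. The patch therefore stood between a CpG methylated on V in both libraries and one with little methylation in either.

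The other 3 of this direction rested on less. SCAFFOLD4 from 5126855 to 5128296 had V at 71.3% ± 30.6 in F1VG and 32.1% ± 36.2 in F1GV over 8 members (chi-square adjusted p = 0.0013), but G was also higher in F1VG, at 56.8% against 37.6% in F1GV, and V minus G, 7.57 ± 7.25 points (SE), did not pass. SCAFFOLD22 from 1316896 to 1319983 had V at 50.4% ± 38.7 in F1VG and 15.1% ± 22.2 in F1GV (chi-square adjusted p = 0.035), and with gaps of at most 200 bp the chi-square adjusted p was 0.11. SCAFFOLD74 from 241690 to 242213 had V at 85.9% ± 23.8 in F1VG and 50.7% ± 30.5 in F1GV over 10 members, but the stratified test on its 3 spaced CpGs did not pass (chi-square adjusted p = 0.87). There the spaced CpGs gave a difference of 6.46 points, and with those taken from the right end the chi-square adjusted p was 0.0015.

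**Figure D4:**
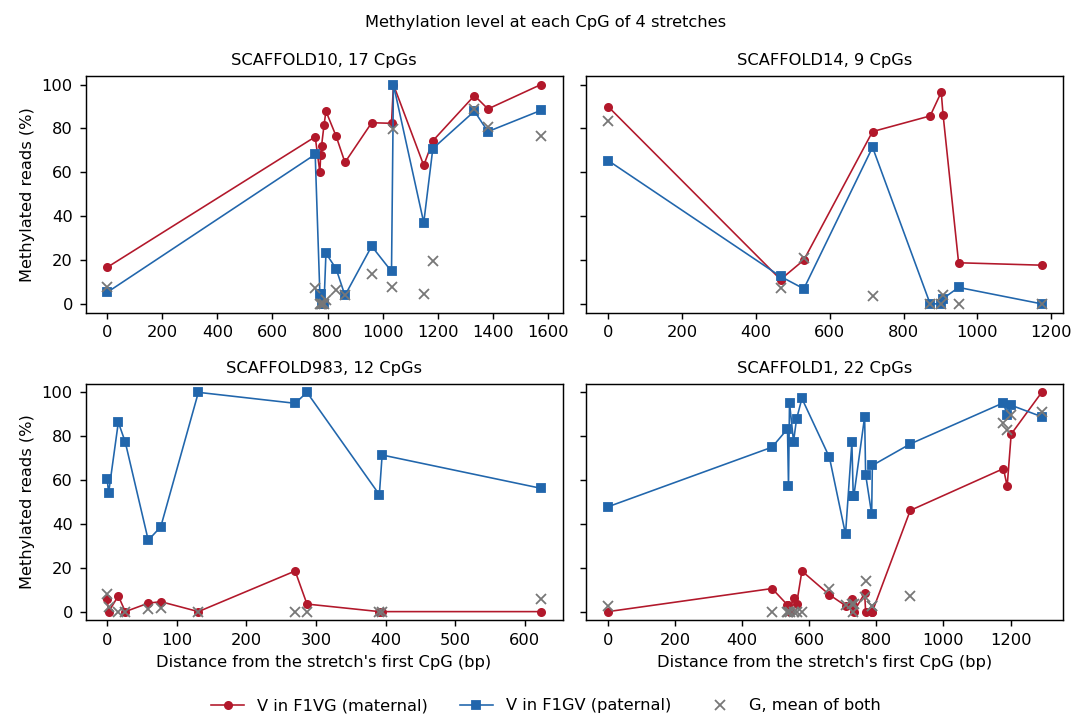
Methylated reads (y axis, percent) at each member CpG against its distance from the first CpG of the stretch (x axis, bp), for V in F1VG (red circles), V in F1GV (blue squares) and G as the mean of both libraries (grey crosses), in 2 stretches with V higher in F1VG (SCAFFOLD10 and SCAFFOLD14, top) and 2 with V higher in F1GV (SCAFFOLD983 and SCAFFOLD1, bottom). On SCAFFOLD983 the V levels of the libraries do not overlap, with a maximum of 18.5% in F1VG and a minimum of 32.6% in F1GV, while the other 3 stretches hold CpGs at which V is alike in both.

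The 4 stretches with the most members showed small mean differences made up of larger ones at single CpGs. SCAFFOLD123 from 2041 to 14215, with 125 members, had V at 47.5% ± 33.6 in F1VG and 58.5% ± 26.9 in F1GV, a difference of -11.0 points (chi-square adjusted p = 1.3e-07). V was higher in F1VG at 48 members and higher in F1GV at 75, and 3 were called. At 57 members the difference was at least 20 points. Over all members with a pooled V level of 20% to 80% the median absolute difference was 18.4 points, so this number is not particular to the stretch. The single differences ran from -85.0 to 41.7 points, and the CpG at -85.0 had 8 V reads in F1VG and was not called. G was at 5.74% in F1VG and 5.77% in F1GV. SCAFFOLD4 from 5219313 to 5225623, with 97 members, was at 66.8% ± 30.9 in F1VG and 65.0% ± 28.9 in F1GV on V, a difference of 1.79 points, and G was at 37.1% in both. Its stratified test passed (chi-square adjusted p = 3.6e-06, a difference of 10.1 points over the spaced CpGs), but with every member in the test it did not (chi-square adjusted p = 0.14), and 9 of its CpGs were called. The switched CpG at position 5225623 is the last of this stretch.

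SCAFFOLD35 from 1553041 to 1557860, with 70 members, had V at 59.6% ± 32.5 in F1VG and 60.7% ± 32.4 in F1GV (chi-square adjusted p = 1.0). SCAFFOLD126 from 134282 to 142217, with 67, had V at 63.9% ± 29.9 in F1VG and 53.0% ± 35.6 in F1GV (chi-square adjusted p = 0.24), and G at 46.2% in F1VG and 40.7% in F1GV. With the spaced CpGs taken from the right end, SCAFFOLD35 passed (chi-square adjusted p = 0.0029) and SCAFFOLD126 did not (chi-square adjusted p = 0.10). SCAFFOLD126 passed with members at a pooled V level of at least 20% (chi-square adjusted p = 0.0023) and with every member in the test (chi-square adjusted p = 6.9e-18). Single CpGs differed by up to 88.1 points on SCAFFOLD126, and 2 CpGs on SCAFFOLD35 and 3 on SCAFFOLD126 were called.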

How the data were processed

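WGBS-seq was performed on DNA from 1 pool of 50 adults per cross. The authors used CASAVA 1.8.2, FastQC, Trimmomatic and BWA, mapped single-end reads to both species' converted v1.0 genomes, and split them by species-specific variants. Per CpG, the deposited counts give methylated and unmethylated reads of each allele and of all reads, and every listed CpG had 8 or more reads on both alleles. The authors corrected for mapping bias towards the reference genome, by a method not given in the sources used here. A T may be a converted cytosine or a C-to-T sequence difference, which cannot be told apart in these counts. Intervals cover counting error only.

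Levels, Fisher's exact tests and Cochran-Mantel-Haenszel tests with continuity correction were computed from the counts in Python 3.11.15 (pandas 2.3.3, SciPy 1.17.1, Numba 0.67.0, NumPy 2.4.6; plots with Matplotlib 3.10.9) and tested on simulated data. Spaced CpGs were taken from the left end of a stretch. The CpGs named were the 5 with the smallest p in each direction, at most 1 within 1000 bp. The stretches named were the 6 of at least 6 CpGs with the largest difference in each direction and the 4 with the most CpGs. Members, lists and tests were chosen with earlier results of these data known. Alternatives changed the limits on level, depth, gap, size and p, the depth balance and the CpGs that entered a test.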

Additional observations from a re-analysis of the deposited data

Results flagged for a closer look

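The V and the G allele of the same CpGs changed differently between the libraries in 952 stretches, by the comparison of their Mantel-Haenszel differences. Values are the V difference minus the G difference, F1VG minus F1GV, in percentage points ± SE, and a positive value means that V was higher in F1VG relative to G. They come from the spaced CpGs only and can differ from the means over all members of a stretch. Among the named stretches with V higher in F1VG, those on SCAFFOLD10 had 39.1 ± 6.24 (from 1648325) and 33.1 ± 5.48 (from 1867079). The stretch on SCAFFOLD14 from 208932 had 37.1 ± 6.52, and that on SCAFFOLD22 from 1316896 had 17.3 ± 6.27.

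With V higher in F1GV, SCAFFOLD38 from 1299593 had -74.9 ± 7.30 and SCAFFOLD5 from 331663 had -71.2 ± 5.61. These values rest on only 2 spaced CpGs on SCAFFOLD38 and 3 on SCAFFOLD5. Over all members the mean differences were smaller, -50.4 points for V and -1.86 for G on SCAFFOLD38. On SCAFFOLD5 they were -48.9 for V and 0.54 for G. SCAFFOLD983 from 10178 had -66.4 ± 5.28. The value was -51.8 ± 4.99 on SCAFFOLD38 from 1407431 and -51.2 ± 6.14 on SCAFFOLD1 from 5564203. Of the 4 stretches with the most CpGs, SCAFFOLD123 from 2041 had -12.3 ± 1.95 and SCAFFOLD4 from 5219313 had 9.98 ± 2.29. All of these passed at an adjusted p under 0.05, and each rests on 1 library per cross.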

How the results depend on the processing

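No paired analysis was possible because each cross had 1 library, and for the same reason no replicate could be left out. Against 1502 called CpGs, 4755 were called with adjustment over the CpGs at a pooled V level of at least 10%, 943 (314 higher in F1VG, 629 in F1GV) with reads thinned to equal depth and 540 (222 and 318) among CpGs more than 100 bp apart. Against 396 stretches past 20 points (216 and 180), the count was 612 (433 and 179) with the level taken as the mean of the libraries, 612 (413 and 199) after thinning, 700 (245 and 455) with gaps of at most 200 bp, 128 (36 and 92) with at least 8 CpGs and 86 (29 and 57) at a limit of 30 points. With at least 16 V reads it was 273, with 172 higher in F1GV. Against 896 stretches called by the stratified test (504 and 392), the count was 1605 (1180 and 425) with the mean level, 458 (238 and 220) at an adjusted p under 0.01, 573 (269 and 304) with at least 8 CpGs, 608 (274 and 334) with at least 16 V reads, 608 (243 and 365) with gaps of at most 200 bp, 902 (601 and 301) after thinning and 1642 (904 and 738) with every CpG. With CpGs taken from the right, an alternative chosen after seeing the data, it was 942, of which 555 were shared.

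Against 2.88 points, the median V difference was 0.0 at a pooled V level of at least 20%, 6.37 with the mean level, 2.65 with at least 16 V reads and 4.35 after thinning. With at least 16 V reads the direction reversed in the stretches on SCAFFOLD4 from 5219313 (-0.17 points) and SCAFFOLD35 from 1553041 (2.21 points). The cause of these changes was not tested.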
